A study of Rattus norvegicus with 9 samples.

Results

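The genes described here are 9 markers of T and B lymphocytes and of blood leukocytes in general, Cd3d, Cd3e, Cd3g, Cd4, Cd79a, Cd79b, Ms4a1, Ccr7 and Ptprc. They were listed by symbol, with earlier results of these data known, and all 9 stood among the 37203 gene symbols of the count table. The tissue was the superior mesenteric artery (SMA), the vessel that feeds most of the small intestine. Transcripts were counted by sequencing total RNA of arteries from Sprague-Dawley rats aged 8 weeks and weighing 220 to 240 g. There were 3 libraries each from normal rats, from rats with 1 h of ischemia and from rats with 4 h of ischemia. Ischemia was a hemorrhage model made by letting blood from the right femoral artery, with time counted once the model was set up, so the whole animal and not the artery alone was affected.

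T cells recognise antigen through a receptor that signals only when it is assembled with the CD3 chains, which Cd3d, Cd3e and Cd3g encode. B cells use membrane immunoglobulin with the signalling pair CD79A and CD79B (Cd79a, Cd79b) and carry CD20 (Ms4a1) on their surface, while CCR7 (Ccr7) guides T cells, B cells and dendritic cells to lymph nodes along the chemokines CCL19 and CCL21. CD45 (Ptprc) is a tyrosine phosphatase on nearly all nucleated blood cells, and CD4 (Cd4) is the coreceptor of helper T cells that rat monocytes and macrophages carry as well. Lymphocytes are few inside the wall of a healthy artery and many in lymph nodes.

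The 3 CD3 genes lie next to each other on chromosome 8 of the RefSeq rat assembly GRCr8, in the order Cd3g, Cd3d, Cd3e with no other protein-coding gene between them. Their upstream sequences are shown because they are neighbours and had most of their counts in the same libraries, and that of Ptprc is shown because it was the member with the most counts. Each run is the 250 bases before the RefSeq start of the gene, written 5′ to 3′ on the strand of the gene. Positions are chr8:54185269-54185518 (plus strand) for Cd3d, chr8:54211771-54212020 (minus strand) for Cd3e, chr8:54183919-54184168 (minus strand) for Cd3g and chr13:52259747-52259996 (minus strand) for Ptprc. Capitals mark the motifs found, which are GGAAGT (the core bound by ETS factors, or ACTTCC when it lies on the other strand) and CAGCTG (an E-box).
Cd3d: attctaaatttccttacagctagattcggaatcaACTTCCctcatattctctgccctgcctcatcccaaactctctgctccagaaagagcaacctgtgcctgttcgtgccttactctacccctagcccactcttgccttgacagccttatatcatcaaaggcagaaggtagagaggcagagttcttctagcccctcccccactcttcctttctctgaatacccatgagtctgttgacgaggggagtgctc
Cd3e: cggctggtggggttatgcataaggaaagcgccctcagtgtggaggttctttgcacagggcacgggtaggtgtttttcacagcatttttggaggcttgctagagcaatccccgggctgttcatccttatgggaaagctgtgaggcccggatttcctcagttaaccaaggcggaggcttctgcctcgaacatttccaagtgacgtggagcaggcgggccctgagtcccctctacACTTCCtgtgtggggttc
Cd3g: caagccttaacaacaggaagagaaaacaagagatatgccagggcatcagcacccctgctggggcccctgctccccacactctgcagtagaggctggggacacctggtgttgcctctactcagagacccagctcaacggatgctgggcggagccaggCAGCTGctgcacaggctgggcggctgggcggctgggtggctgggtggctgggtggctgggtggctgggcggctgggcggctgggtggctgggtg
Ptprc: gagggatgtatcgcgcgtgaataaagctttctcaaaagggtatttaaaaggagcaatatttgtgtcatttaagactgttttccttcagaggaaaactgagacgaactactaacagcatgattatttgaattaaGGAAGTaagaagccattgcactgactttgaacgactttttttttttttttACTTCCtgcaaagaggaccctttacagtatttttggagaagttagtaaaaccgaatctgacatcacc

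Motifs were searched on both strands, and none of those printed overlaps another. The ETS core stood 216 bases before the start in Cd3d, 18 in Cd3e, and 67 and 117 in Ptprc, and it also stood 54 bases before the start of Cd79a. It was present in 19.2% of all 33469 promoters of this length. The E-box of Cd3g stood 94 bases before the start, and 12.0% of all promoters held one. The octamer ATGCAAAT (1.56% of promoters), the RUNX core TGTGGT (14.5%), the GATA core AGATAA (10.3%) and the TATA box TATAAA (12.9%) were not in these windows for any of the 5 members with a promoter in the table. GC content was 66.4% for Cd3g, 56.0% for Cd3e, 49.6% for Cd3d and 36.0% for Ptprc, against a median of 51.2% over all promoters.

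Libraries held 13114273 to 15504240 counts, and a floor of 3 counts corresponded to 0.168 to 0.249 CPM (counts scaled by a library size that the TMM method adjusts). The smooth muscle list, with Acta2 and Myh11 among its 13 genes, was counted in full in every library. Smooth muscle was thus present in each, and whether the tissue was artery alone was not tested. Normal replicate 1 and replicate 3 at 1 h stood apart. They had the lowest summed smooth muscle level (12428 and 14521 CPM, against 26914 to 74438 CPM in the other 7 libraries) and the highest summed adipocyte level (2658 and 2554 CPM, against 423 to 2395 CPM). The adipocyte list did not single out the pair by mean log2 CPM. There, normal replicate 1 (5.16) lay below replicate 1 at 1 h (6.09) and replicate 3 at 4 h (5.21). Of the 11 adipocyte genes, 10 were counted in normal replicate 1, where Ucp1 was at 0, and all 11 in replicate 3 at 1 h. By group, summed adipocyte levels spanned 530 to 2658 CPM in normal arteries, 974 to 2554 CPM at 1 h and 423 to 1211 CPM at 4 h. Nerve genes split the libraries in another way. The sympathetic neuron list reached 11000 to 11281 CPM in 3 libraries (replicates 1 and 3 at 1 h, replicate 3 at 4 h) and 51.7 to 1201 CPM in the other 6. Gut epithelium genes were highest in normal replicate 1. The list of 11 summed to 95.1 CPM there, while the remaining libraries lay between 7.37 and 41.2 CPM. All 11 were higher there than in replicate 3 at 1 h. Fabp1 and Fabp2, for example, had 217 and 184 counts in the normal library and 0 in the ischemic one. What part these differences in tissue make-up had in the levels of the lymphocyte genes was not tested. Values are therefore given for every library, and comparisons with and without the pair.

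The CD3 genes, which encode the invariant chains of the T cell receptor, were at or near the limit of detection in most arteries and clearly counted in the pair that stood apart. Cd3e was at 3.75, 0.292 and 0 CPM in normal replicates 1 to 3, at 0.602, 0 and 2.70 CPM at 1 h, and at 0, 0.166 and 0.132 CPM at 4 h, from 128 counts in all. Cd3g was at 2.24, 0 and 0.148 CPM in normal arteries, at 0.401, 0 and 0.799 CPM at 1 h, and at 0.0827, 0.497 and 0.0660 CPM at 4 h, from 69 counts. Cd3d, with 32 counts, was at 1.01, 0.219 and 0 CPM in normal arteries, at 0.134, 0 and 0.491 CPM at 1 h, and at 0, 0.0829 and 0 CPM at 4 h. In each of these genes normal replicate 1 was highest and replicate 3 at 1 h next, and the ranges of the 3 groups overlapped. Over the other 7 libraries the highest count was 9 for Cd3e (replicate 1 at 1 h), 6 for Cd3g and 3 for Cd3d, and 3, 2 and 4 of these libraries respectively had no count. In bulk tissue, fewer cells of a type and less RNA per cell cannot be told apart.

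The B cell genes were split in the same way, with fewer counts still outside the pair. Cd79b, the signalling partner of the B cell receptor, had 91, 0 and 0 counts in normal arteries, 4, 0 and 129 at 1 h, and 0, 4 and 0 at 4 h, which gave 5.09 and 7.93 CPM in the pair and at most 0.332 CPM elsewhere. Ms4a1, which encodes CD20, had 25, 2 and 0 counts in normal arteries, 2, 0 and 145 at 1 h, and 0 in all 3 arteries at 4 h. Its CPM was 1.40 in normal replicate 1 and 8.91 in replicate 3 at 1 h, and no other library passed 0.146. Cd79a, the obligate partner of Cd79b, was listed at 0 counts in all 9 libraries, also in the libraries where Cd79b had 91 and 129. The annotation behind the counts is not given in the sources used here, so whether reads of Cd79a could be assigned to it is unknown and its 0 is not read as a low level. For the counted genes, a count of 0 allows up to 0.168 to 0.249 CPM in a library, counting error only. The groups of both counted genes overlapped.

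Ccr7, the lymph node homing receptor, followed the same libraries. It had 31, 3 and 0 counts in normal arteries, 0, 2 and 40 at 1 h, and 1, 3 and 2 at 4 h. The pair was thus at 1.74 and 2.46 CPM, and no other library passed 0.249 CPM.

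Ptprc, the general leukocyte phosphatase, had 1506 counts in all and was counted in every library. It was at 34.9, 1.02 and 1.40 CPM in normal arteries, at 4.48, 2.61 and 42.1 CPM at 1 h, and at 0.496, 0.912 and 2.64 CPM at 4 h. Group means were 12.5 ± 19.5 CPM (SD, n = 3) in normal arteries, 16.4 ± 22.3 CPM at 1 h and 1.35 ± 1.14 CPM at 4 h. The SD exceeded the mean in the first 2 groups, since one library of each held nearly all of the signal. Without that pair, values ran from 0.496 to 4.48 CPM with a median of 1.40 CPM, and replicates 1 and 2 at 1 h were 2 of the 3 highest. The highest artery at 4 h (2.64 CPM) lay just above the lowest at 1 h (2.61 CPM), so these groups overlapped narrowly.

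Cd4 was the most evenly spread of these genes. It was at 26.8, 4.96 and 11.0 CPM in normal arteries, at 10.2, 7.55 and 13.5 CPM at 1 h, and at 4.13, 8.13 and 7.46 CPM at 4 h, from 1443 counts. Means were 14.3 ± 11.3, 10.4 ± 2.99 and 6.57 ± 2.14 CPM (SD, n = 3). Normal replicate 1 and replicate 3 at 1 h were again the highest, but 50 to 153 counts remained in each of the other 7 libraries, where the CD3 genes had 0 to 9. The order of the means was normal, 1 h and 4 h, and each group overlapped both of the others, although the lowest artery of all was at 4 h.

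**Figure D1:**
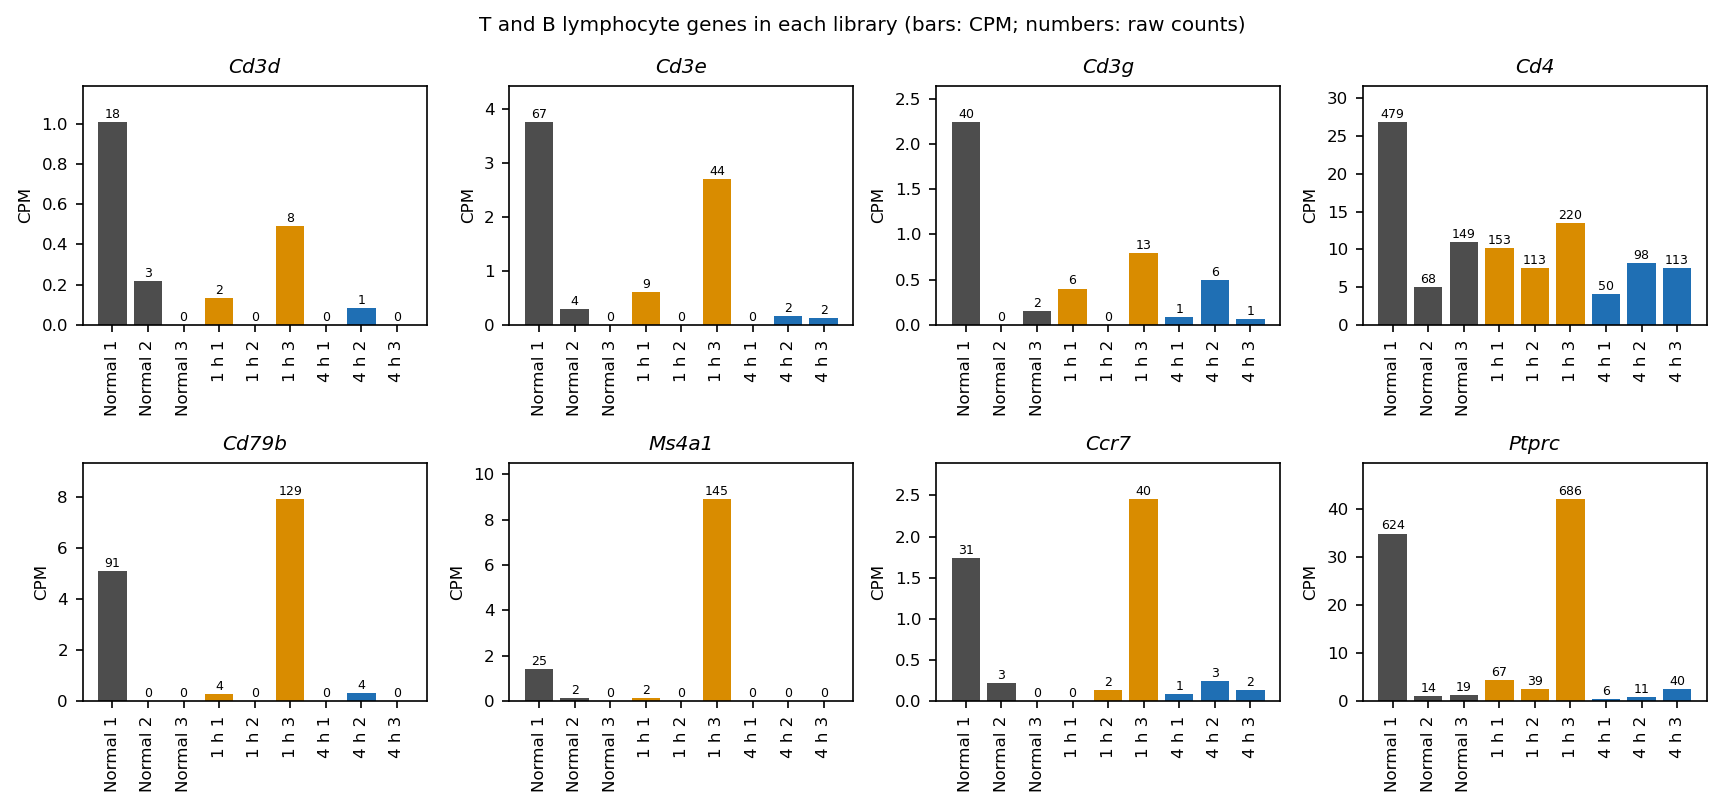
Bars give the CPM of each gene (vertical axis, linear, scaled separately for each gene) in the 9 libraries (horizontal axis, coloured by group), with the raw count above each bar. Cd79a, at 0 in all libraries, is left out; in all 8 panels normal replicate 1 and replicate 3 at 1 h are the highest bars, and Cd4 is the one gene with 50 or more counts in every library.

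Together, normal replicate 1 and replicate 3 at 1 h held 97.4% of the summed CPM of Ms4a1, 95.6% of Cd79b, 85.0% of Ptprc, 84.4% of Cd3e, 83.7% of Ccr7, 77.5% of Cd3d, 71.8% of Cd3g and 43.0% of Cd4. The median share over the 15482 genes tested was 22.9%. In all 8 counted members both libraries lay above the other 7. The same held for 761 of the genes tested (4.92%), and for 341 of 3620 symbols (9.42%) with a total of 32 to 228 counts, the range of the 6 counted members that were too low to test. These libraries were singled out from their values, so the shares are a description.

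Although both were high, the pair differed in the balance of T and B cell genes. Normal replicate 1 had 125 counts of the CD3 genes and 116 of Cd79b and Ms4a1, so CD3 made up 51.9% (95% Clopper-Pearson interval 45.4 to 58.3%). Replicate 3 at 1 h had 65 and 274, a CD3 share of 19.2% (15.1 to 23.8%). The intervals did not overlap and cover counting error only. Where at least 9 counts were present in other libraries, CD3 made up 77.8% (40.0 to 97.2%) in normal replicate 2, 73.9% (51.6 to 89.8%) in replicate 1 at 1 h and 69.2% (38.6 to 90.9%) in replicate 2 at 4 h, from 9, 23 and 13 counts. Gene by gene, the CPM in normal replicate 1 divided by that in replicate 3 at 1 h was 2.80 for Cd3g (95% Poisson interval 1.47 to 5.71), 2.05 for Cd3d (0.848 to 5.45), 1.98 for Cd4 (1.69 to 2.34) and 1.39 for Cd3e (0.935 to 2.08). It was 0.829 for Ptprc (0.743 to 0.925), 0.706 for Ccr7 (0.427 to 1.16), 0.643 for Cd79b (0.486 to 0.847) and 0.157 for Ms4a1 (0.0984 to 0.241). Cd3g and Cd4 were thus higher in the normal library beyond counting error, and Ptprc, Cd79b and Ms4a1 higher in the ischemic one. Since each is a single artery, the difference compares these libraries and not the conditions.

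**Figure D2:**
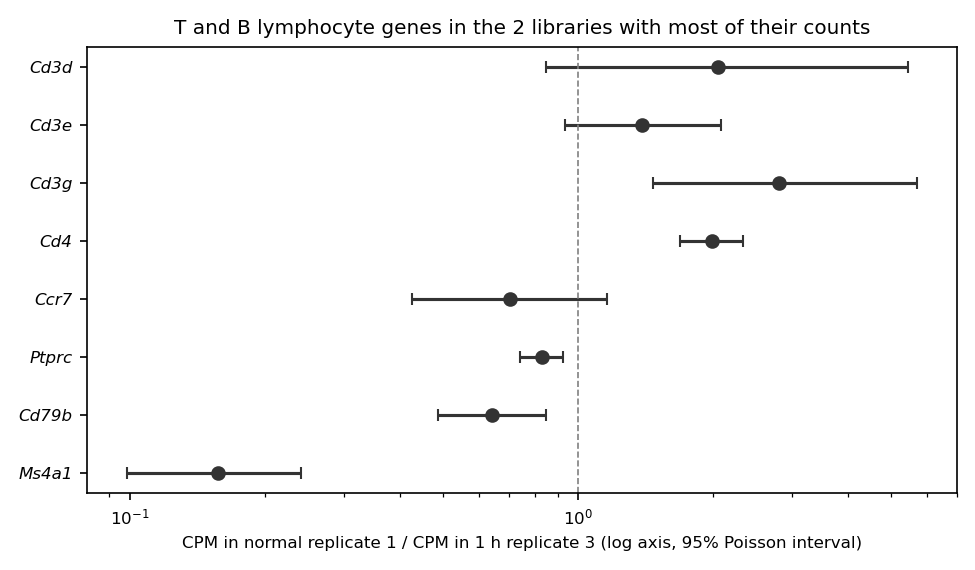
Points give, for each gene (vertical axis), the CPM in normal replicate 1 divided by the CPM in replicate 3 at 1 h (horizontal axis, log scale), with 95% Poisson intervals as bars and a dashed line at equal levels. Cd3g and Cd4 lie above 1, Ptprc, Cd79b and Ms4a1 lie below it, and the intervals of Cd3d, Cd3e and Ccr7 include it.

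The design asks whether the artery gains or loses these transcripts within hours of blood loss. After 1 h, none of the members was called different from normal arteries by the edgeR quasi-likelihood test, where a call needs a fold change over 1.5 and an adjusted p under 0.05. Only Cd4 and Ptprc had enough counts to pass the filter, and the background of calls in that comparison was 0.0581% of genes. Cd4 was 10.4 against 14.3 CPM, a log2 fold change of -0.45 (SE 0.57, edgeR adjusted p = 0.683), and Ptprc 16.4 against 12.5 CPM, a log2 fold change of 0.39 (SE 1.46, edgeR adjusted p = 0.900). At the unadjusted threshold of 0.05, which 16.7% of genes passed, neither member did. None of the 8 counted members had groups that did not overlap, against 26.3% of the genes tested. Only Cd4 and Ptprc are among the genes tested, so that share is a background for them alone. The same holds for the shares without overlap in the comparisons that follow. Without normal replicate 1 and replicate 3 at 1 h the sign of Cd4 turned, to 0.10 (SE 0.53), while Ptprc was at 1.49 (SE 0.84, edgeR unadjusted p = 0.125).

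After 4 h, both tested members were lower on average than in normal arteries, and neither was called. Cd4 had a log2 fold change of -1.12 (SE 0.58, edgeR adjusted p = 0.473) and Ptprc of -3.19 (SE 1.62, edgeR adjusted p = 0.468), where 0.0904% of all genes were called and 12.4% passed the unadjusted threshold. Both unadjusted values missed it (0.0884 and 0.0838 in edgeR). The groups of all 8 counted members overlapped, which 18.7% of the genes tested did not. The apparent drop rested on normal replicate 1. Without it, Ptprc was at 0.17 and Cd4 at -0.28, and without the pair at 0.14 (SE 0.77) and -0.31 (SE 0.48).

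Between 4 h and 1 h, 0% of the genes tested were called, members included. Ptprc had a log2 fold change of -3.58 (SE 1.65, edgeR adjusted p = 0.856, unadjusted 0.0602) and Cd4 of -0.67 (SE 0.58, edgeR adjusted p = 0.856). Without normal replicate 1 and replicate 3 at 1 h the values were -1.35 (SE 0.74) for Ptprc and -0.40 (SE 0.48) for Cd4, of the same sign and smaller. Unadjusted, 2.58% of genes passed 0.05 and no tested member did, and the 8 counted members again overlapped, against 6.24% of genes that did not. Over all 3 groups together the edgeR adjusted p was 0.552 for Cd4 and 0.526 for Ptprc, in a test that called 0.0388% of genes.

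The remaining 6 counted members could be tested only without the filter on low counts. Of 24047 symbols with a count, edgeR then called 0.0499% after 1 h, 0.0541% after 4 h and 0% between 4 h and 1 h, and none of the 8 members in any of them. At an unadjusted p under 0.05, which 2.25% of symbols passed between 4 h and 1 h, Ms4a1 (0.0310) and Ptprc (0.0430) were lower at 4 h. The edgeR adjusted p was 0.836 for each of them. For Ms4a1 that difference is the 145 counts of replicate 3 at 1 h, since the other libraries of both groups held 2 counts in all. DESeq2, run on the 15482 filtered genes, called 702 after 1 h, 606 after 4 h and 0 between 4 h and 1 h. Over all 3 groups together it called 669. Neither Cd4 nor Ptprc was called, and as DESeq2 gave no p for Ptprc, its result covers Cd4 alone.

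**Figure D3:**
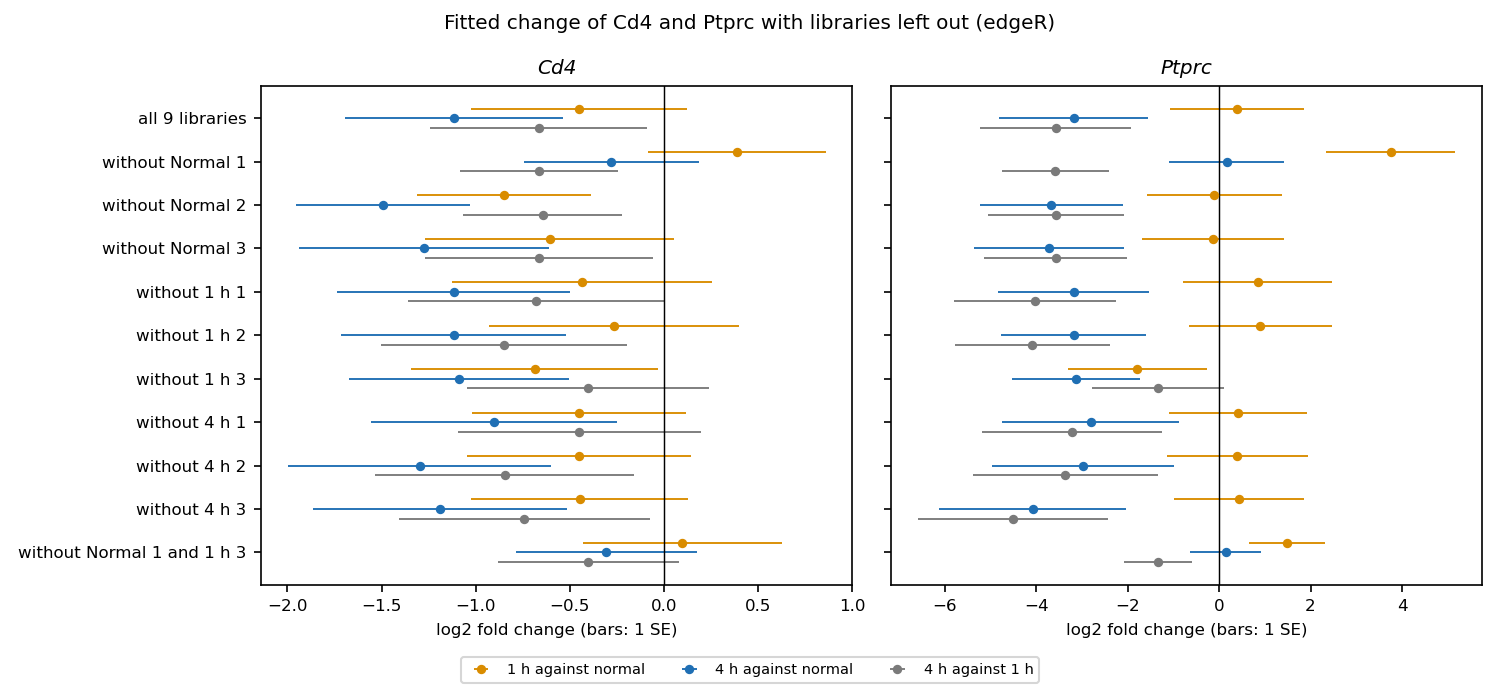
Points give the edgeR log2 fold change (horizontal axis) of Cd4 and Ptprc in the 3 comparisons, with bars of 1 SE, for all 9 libraries, with each library left out in turn and without normal replicate 1 and replicate 3 at 1 h (vertical axis). Leaving out normal replicate 1 turns Cd4 after 1 h from -0.45 to 0.39 and Ptprc after 4 h from -3.19 to 0.17, and leaving out replicate 3 at 1 h turns Ptprc after 1 h from 0.39 to -1.79.

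Other genes of the same cells were taken from lists, and those named in this paragraph beyond the most abundant were chosen after their values were seen. Of 32 further T cell genes with a count, both libraries of the pair lay above the other 7 in 21, and of 28 further B cell genes in 25. Cd247, the zeta chain of the T cell receptor complex, had 48, 0 and 0 counts in normal arteries, 8, 1 and 30 at 1 h, and 0, 4 and 0 at 4 h. Cr2, the complement receptor of B cells and follicular dendritic cells, had 60, 0 and 6, then 5, 3 and 244, then 1, 3 and 2. Cd247 thus had more counts in normal replicate 1, as Cd3e had, and Cr2 more in replicate 3 at 1 h, as Cd79b had. Of the B cell genes, 16 were higher there and 3 higher in normal replicate 1 beyond counting error, and of the T cell genes 4 and 7.

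Of the genes of lymph node stroma and vessels, some had most of their counts in the same libraries and others did not. Glycam1, a mucin-like glycoprotein made in high endothelial venules of lymph nodes, had 24, 0 and 0 counts in normal arteries, 1, 0 and 124 at 1 h, and 0 in all arteries at 4 h. Cxcl13, which draws B cells into follicles, had 73, 1 and 1, then 13, 5 and 92, then 1, 4 and 15. Glycam1 and Cxcl13 were chosen after their values were seen. The ligands of CCR7 did not share the pattern. Ccl21 was at 209, 140 and 145 CPM in normal arteries, at 93.6, 83.9 and 103 CPM at 1 h, and at 410, 146 and 70.0 CPM at 4 h, and Ccl19 had 7 to 57 counts with 10 and 30 in the pair. In the list of CCR7 ligands and homing genes both libraries were above the rest for 10 of 23 counted genes.

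Among the 3 most abundant tested genes of each of the T and B cell lists, Tcf7, Fyb and Lyn had both libraries of the pair above the other 7, and Gata3, Ebf1 and Swap70 did not. Tcf7, a transcription factor of T cells, was at 18.7, 5.11 and 5.32 CPM in normal arteries, at 5.42, 2.81 and 9.71 CPM at 1 h, and at 1.82, 2.90 and 4.42 CPM at 4 h. Fyb, an adaptor of T cells and myeloid cells, was at 9.85 and 13.3 CPM in the pair and at 2.07 to 8.61 CPM in the other 7. Gata3, which T helper cells share with sympathetic neurons, was at 16.1 to 22.5 CPM in the 3 libraries high in neuronal genes and at 0.331 to 2.24 CPM elsewhere. Ebf1, a B cell factor that fat and stromal cells also express, ran from 61.3 to 118 CPM and was lowest in replicate 3 at 1 h, where Cd79b and Ms4a1 were highest. Lyn, a kinase of B cells and myeloid cells, was at 22.2 and 16.5 CPM in the pair and at 9.26 to 13.6 CPM elsewhere. Swap70 (34.1 to 108 CPM) was highest in normal replicate 1, and replicate 3 at 1 h (63.4 CPM) lay below replicate 2 at 1 h (65.2 CPM).

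None of the genes in these lists was called in any comparison. After 1 h, 0 of 10 tested T cell genes and 1 of 13 tested B cell genes (Cxcr5, higher) had an unadjusted p under 0.05, which 7.98% of all genes had in that direction. After 4 h, 3 T cell genes, Tcf7 and Cd8a among them, were lower at that threshold, against 7.35% of all genes, and no B cell gene was. Cd8a, the coreceptor of cytotoxic T cells, had 40, 11 and 10 counts in normal arteries, 8, 3 and 26 at 1 h, and 2, 1 and 1 at 4 h. Its 3 arteries at 4 h lay below all others, at the closest by 2 counts in replicate 1 at 4 h against 3 in replicate 2 at 1 h. Groups did not overlap in 18.7% of the genes tested after 4 h and in 6.24% between 4 h and 1 h. The log2 fold change of Cd8a was -3.51 (SE 0.96, edgeR adjusted p = 0.197) against normal arteries. Cxcr5 and Cd8a were named after their values were seen. The median log2 fold change after 4 h was -1.13 for the T cell list and -0.80 for the B cell list, against 0.027 for all genes tested. Without the pair the medians were -0.095 and -0.14, against 0.064. After 1 h they were -0.14 and 0.48 with all libraries and 0.39 and 0.21 without the pair.

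Wider leukocyte lists held the same libraries on top in part. Both were above the other 7 for 17 of 25 pan-leukocyte genes, 11 of 23 macrophage genes, 7 of 19 genes of dendritic cells and MHC class II, 6 of 20 genes of NK and cytotoxic cells and 2 of 9 plasma cell genes. The macrophage list summed to 410 and 484 CPM in the pair and to 230 to 426 CPM in the other libraries, a smaller gap than that of the T cell list (89.9 and 101 CPM against 9.67 to 43.3 CPM). By mean log2 CPM the pair was on top of both lists. It was at 3.25 and 3.07 against at most 2.65 for macrophage genes, and at 0.56 and 0.38 against at most -0.94 for T cell genes. None of the neutrophil, red cell, platelet, endothelial, fibroblast, smooth muscle, Schwann cell, sympathetic neuron, exocrine pancreas or lymphatic vessel genes had both libraries above the rest, while 6 of 11 adipocyte genes and 3 of 11 gut epithelium genes did.

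**Figure D4:**
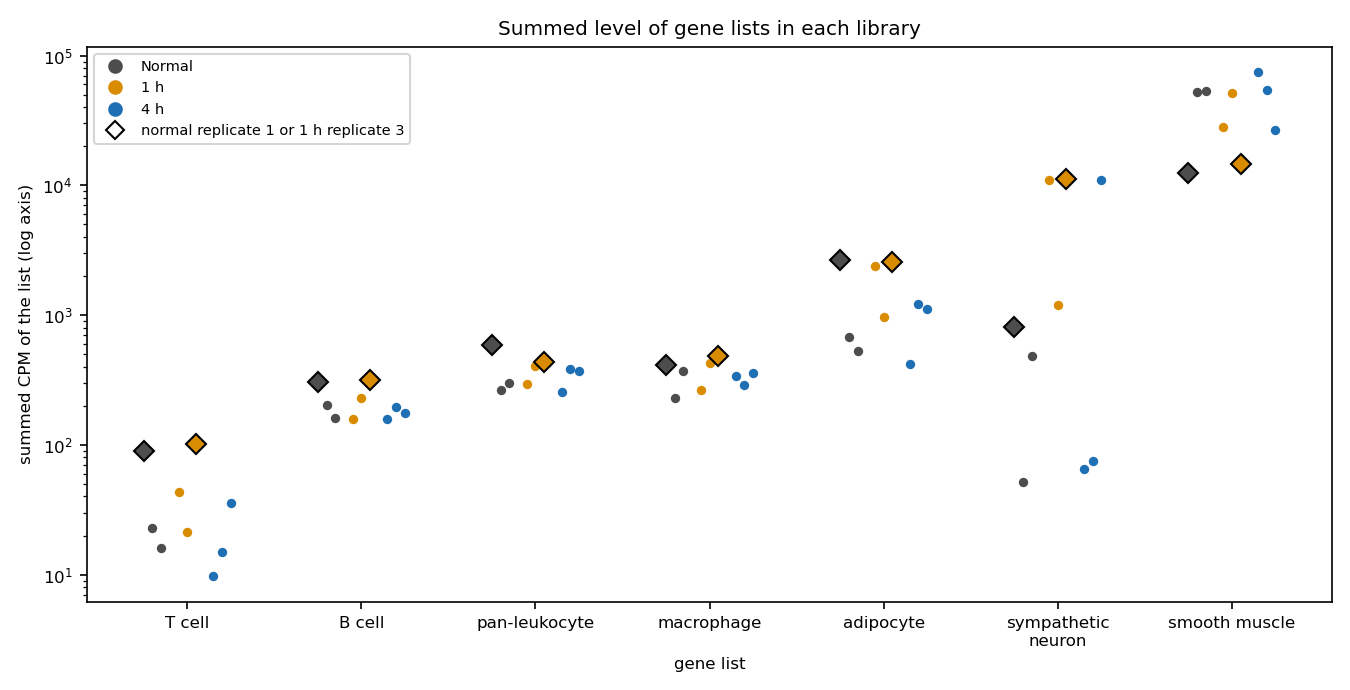
Points give the summed CPM (vertical axis, log scale) of 7 gene lists (horizontal axis) in the 9 libraries, coloured by group, with diamonds for normal replicate 1 and replicate 3 at 1 h. The diamonds are the highest points of the T cell, B cell, pan-leukocyte and adipocyte lists and the lowest of the smooth muscle list, while in the macrophage list a library at 1 h lies between them.

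Across the 9 libraries, the genes whose log2 CPM was most like that of Ptprc among 12449 candidates were Dennd1c (Pearson coefficient 0.991), Acap1 (0.984), Ciita (0.980), Arhgap25 (0.975) and Creg1 (0.968). Those most like Cd4 were Fam115c (0.968), Nupr1l (0.964), Hey1 (0.950), Foxd3 (0.948) and Ptpn6 (0.946). The median coefficient of Ptprc was 0.863 with pan-leukocyte genes, 0.853 with B cell, 0.787 with T cell and 0.727 with macrophage genes. That of Cd4 was 0.837 with macrophage, 0.738 with B cell, 0.683 with T cell and 0.631 with pan-leukocyte genes. The same medians over all genes tested were not computed. These coefficients are descriptions over 9 libraries, of which a pair is far from the rest in Ptprc, and they were not recomputed without that pair.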

How the data were processed

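The members and the lists were chosen with earlier results of these data known. The authors deposited raw whole-number counts per gene symbol for 9 libraries. HISAT2 is named in the submitters' processing notes, while the counting program, the genome build, the annotation and the use of strand are not given in the sources used here. The methods of the study describe microarrays and a log2 ratio, which the deposited counts are not. Every column matched one sample title. The series text gives 3 rats per group. A p-value from edgeR weighs a difference between groups against the spread between these samples, estimated from all 9 libraries.

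Counts were filtered with filterByExpr, scaled by TMM and fitted with edgeR 4.0.16 in R 4.3.3 (quasi-likelihood test, all 9 libraries, group as the only term), with Benjamini-Hochberg adjustment over 15482 genes. A call needed an adjusted p under 0.05 and a fold change over 1.5. CPM used TMM library sizes, with factors from 0.814 to 1.22, and log2 CPM a prior count of 2. The common biological coefficient of variation was 51.6%, and no library was a copy of another. Binomial and Poisson intervals were made in R 4.3.3. Named were the 9 members, from each list every called gene and up to 3 tested genes of highest mean CPM, and the 5 genes most like Cd4 and Ptprc among those averaging at least 1 CPM. Some further genes were named after their values were seen. Promoters came from RefSeq GRCr8, which held 5 of the 9 members and was used for names and sequences only. Alternatives were other scaling, no filter, DESeq2 1.42.0, only the groups compared, a replicate block, a nerve covariate and leaving out libraries. The values of some list genes are not reported here. The tests were tried on simulated data.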

Additional observations from a re-analysis of the deposited data

How the results depend on the processing

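No member was called under any alternative. In the fits that left out 1 library, 0 of the 2 tested members were called, where 0 to 14 of all genes tested were. After 4 h, the nerve covariate called 116 genes and DESeq2 606. At most 2 members had an unadjusted p under 0.05 with 1 library left out. Both did after 4 h without normal replicate 2 (edgeR unadjusted p = 0.0135 for Cd4 and 0.0499 for Ptprc). The share of all genes at that threshold was not computed for these fits. The median log2 fold change of the 2 tested members was -0.029 after 1 h, -2.15 after 4 h and -2.12 between 4 h and 1 h. With 1 library left out it ran from -1.24 to 2.07, from -2.63 to -0.056 and from -2.63 to -0.87, and the extremes towards higher values after 1 h and 4 h came without normal replicate 1. With 1 library left out, Cd4 ran from -0.85 to 0.39 after 1 h, from -1.49 to -0.28 after 4 h and from -0.85 to -0.40 between 4 h and 1 h, and Ptprc from -1.79 to 3.75, from -4.08 to 0.17 and from -4.51 to -1.34. The sign of Ptprc after 1 h turned without normal replicate 2 (-0.10), normal replicate 3 (-0.13) or replicate 3 at 1 h (-1.79), and with a nerve covariate (-1.65), which also turned Cd4 between 4 h and 1 h (0.043). Leaving out both normal replicate 1 and replicate 3 at 1 h was chosen after seeing the data. It turned Cd4 after 1 h (0.10) and Ptprc after 4 h (0.14) and moved the median after 4 h to -0.083. The fewer libraries of those fits apart, the cause was not tested. Libraries were treated as unpaired. Correlations of same-numbered deviations ran from -0.65 to 0.66 with 4 of 9 over 0.1. These deviations also carry differences in tissue make-up, so whether the replicate numbers pair the libraries stays unresolved. With a replicate block 0 members were called and the medians were 0.022, -1.76 and -1.78. For the 6 members under the filter, depth sets the limit, as 3 counts or fewer were seen in most libraries.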

Other observations

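Igha and Igj were looked at after the values of the members were seen. Igha was outside the lists, and the plasma cell list named the gene of Igj by its other symbol, Jchain. Igha, the constant region of immunoglobulin A, had 95, 11 and 2 counts in normal arteries, 16, 4 and 81 at 1 h, and 8, 19 and 6 at 4 h. Igj, the joining chain of secreted antibodies, had 25, 4 and 2, then 9, 3 and 24, then 3, 10 and 8. Both had most of their counts in normal replicate 1 and replicate 3 at 1 h.

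S1pr4, a lymphocyte receptor for sphingosine-1-phosphate, was chosen from the homing list after its values were seen. It had 82, 33 and 23 counts in normal arteries, 7, 10 and 25 at 1 h, and 2, 3 and 3 at 4 h. Its CPM was 1.70 to 4.59 in normal arteries, 0.468 to 1.54 at 1 h and 0.165 to 0.249 at 4 h, so that the groups did not overlap in any comparison, as in 26.3%, 18.7% and 6.24% of genes after 1 h, after 4 h and between 4 h and 1 h. After 4 h its log2 fold change was -3.78 (SE 0.66, edgeR adjusted p = 0.0746), so it missed the threshold.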
